A study of Mus musculus with 8 samples.

Results

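The genes described here are 10 components of the AMPA receptor: the pore subunits Gria1, Gria2, Gria3 and Gria4, the transmembrane AMPA receptor regulatory proteins Cacng2, Cacng3, Cacng4, Cacng5 and Cacng8, and the cornichon homologue Cnih3. They were chosen by name, with earlier results of these data known, and all 10 were found among the 55450 genes of the count tables. The RNA is nuclear RNA of juvenile mice, from fluorescent nuclei that a cell sorter separated from frozen cortex, with an individual animal behind each library. Mice of both groups carried a loxP-controlled reporter, a fluorescent protein of the nucleus, and a Cre driver active in GABAergic neurons, which are the inhibitory cells of the cortex. Mutants were Thra+/AMI: the same Cre switched on an allele of Thra whose product is a thyroid hormone receptor with dominant-negative action. Controls were Thra+/+. The labels name neither the Cre line, nor the sex, nor the age in days, and because the mutation was limited by Cre, cells of other types in a mutant cortex were not meant to express it.

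AMPA receptors are tetramers of the 4 GluA proteins encoded by Gria1 to Gria4, and they carry most of the fast excitatory current at synapses. The subunits set the properties of the channel. Gria2 RNA is normally edited by the deaminase ADAR2 (gene Adarb1) at 1 codon of the pore, and channels with edited GluA2 pass little calcium. Inhibitory neurons, above all those that express parvalbumin, are known for receptors with little GluA2, which pass calcium and have fast kinetics. The regulatory proteins (TARPs) and cornichons bind the pore subunits, carry them to the surface and synapse, and slow or shape the gating.

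Of the 8 tables, those of mutants 7 and 10 held the same count in each of the 55220 genes that could be compared. Separate libraries would differ by sampling, so these were taken as the same data and count as 1 sample here, called mutant 7. Which animal the counts belong to is not known. This left 4 controls (1 to 4) and 3 mutants (6, 7 and 8). Total counts ran from 11797788 to 13804734 in controls and from 10747169 to 12941251 in mutants. Levels are given as CPM, counts scaled to a common library total with TMM factors, and differences as log2 fold changes of mutant over control from edgeR's quasi-likelihood test. A gene was called at a Benjamini-Hochberg adjusted p under 0.05 over all 16448 tested genes. The p-values rest on the spread between these animals, but edgeR moderates its estimate of each gene's spread with that of the other genes. A p-value is thus not a measure of the gene's own spread alone. With RNA of many nuclei per library, fewer cells of a type and less RNA per cell cannot be told apart.

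Controls 1 and 4 stood apart from the other libraries along gene length. The median gene longer than 100 kb deviated by -0.35 on the log2 scale in control 1 and by 0.36 in control 4, against -0.06 to 0.07 in the other 5 libraries. Of the 10 AMPA receptor genes, 7 are longer than 90 kb, and 6 of these were lowest in control 1 and highest in control 4 among the controls, as was the short gene Cacng8. The fold changes of the AMPA receptor genes are therefore also given with an offset for gene length in the fit, and without these 2 controls. Thra itself, counted over the normal and the mutant allele together, was at 105.5 to 125.5 CPM in controls and at 77.6 to 96.3 CPM in mutants (log2 fold change -0.39, SE 0.11, edgeR adjusted p 0.0543), so its level was no check of the mutation.

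**Figure D1:**
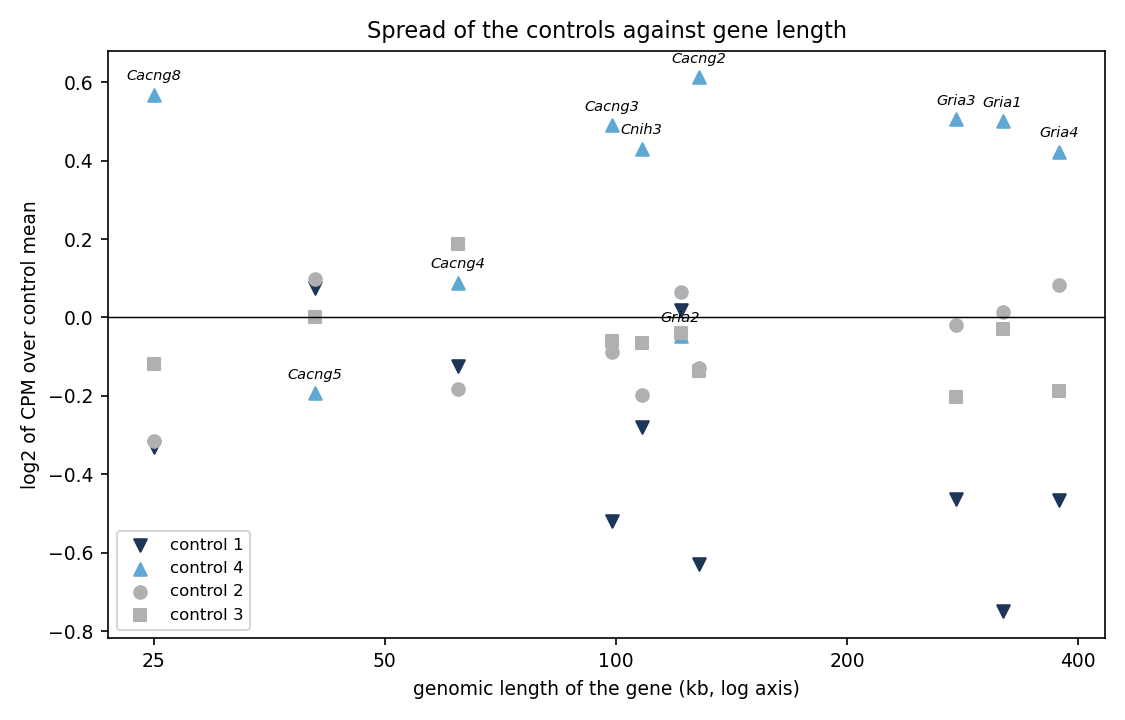
CPM of each of the 10 genes in each control over the control mean (log2, vertical axis) against the gene's genomic length (kb, log axis). In the genes longer than 90 kb other than Gria2, control 4 lies above and control 1 below the other controls, and Cacng8, the shortest gene, also has control 4 highest.

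All 10 AMPA receptor genes passed the filter on low counts. Of these, 2 rose in the mutants and 0 fell: Cacng4 and Cacng5. Across all tested genes, 9.42% were called, 4.63% as higher and 4.78% as lower, so 2 of 10 is a small count to set beside that background. The CPM values of controls and mutants did not overlap in 5 of the 10 genes, namely Gria1, Gria2, Cacng2, Cacng4 and Cacng5, against 22.0% of all tested genes. At an unadjusted p under 0.05, 5 of the 10 passed, against 22.5% of all tested genes: Gria1, Cacng2, Cacng4, Cacng5 and Cnih3. The median log2 fold change of the 10 genes was -0.08 and that of all tested genes -0.01. With the gene length offset 5 of the 10 were called, at a background of 16.7% of genes. Without controls 1 and 4 the count was also 5, again at a background of 16.7%. That fit leaves out the ends of the control range in 7 of the 10 genes. In both of these fits the called genes were Gria1, Cacng2, Cacng4, Cacng5 and Cnih3.

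**Figure D2:**
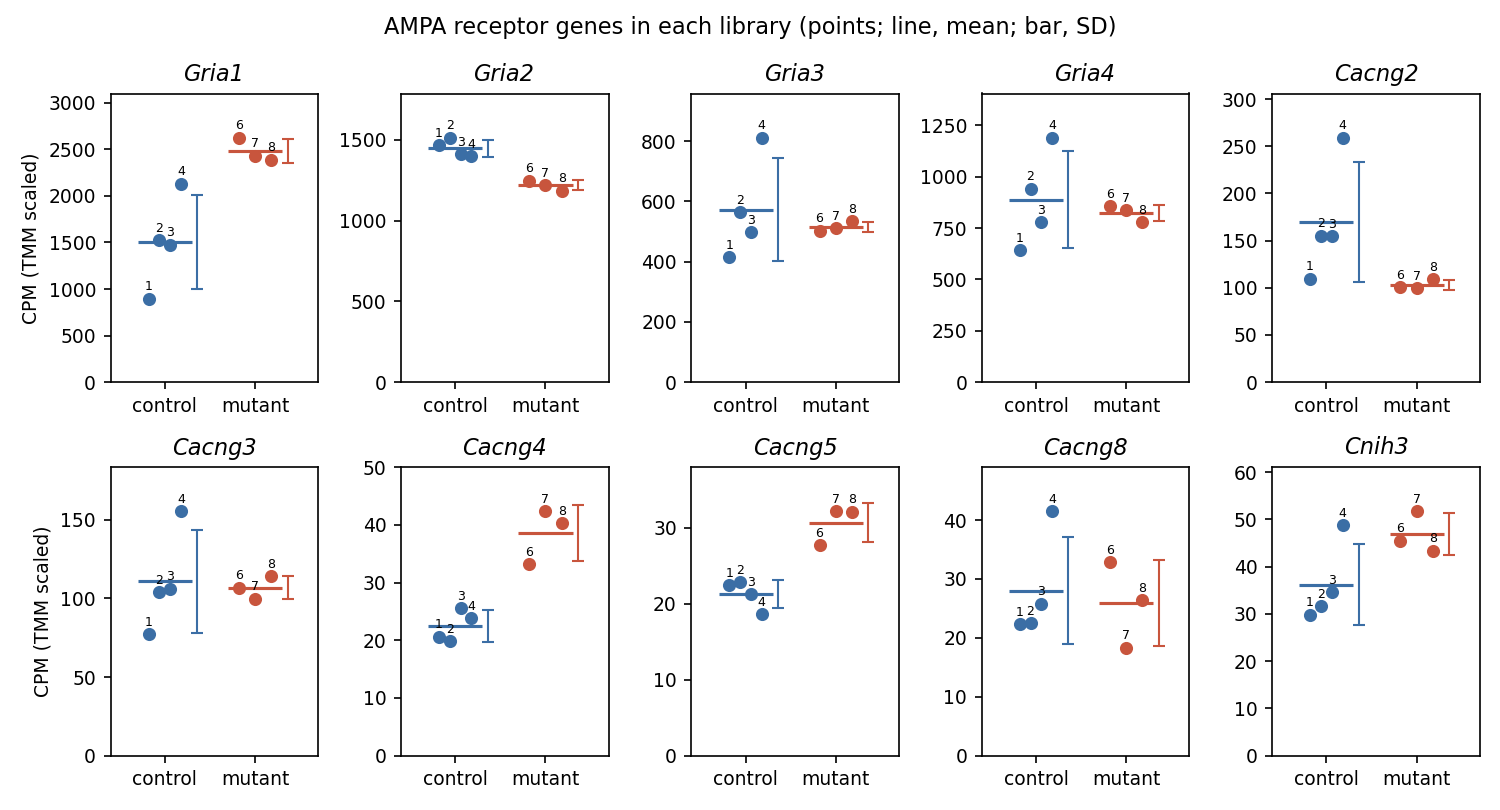
Level of each of the 10 genes in CPM (vertical axes, each starting at 0) in the 4 control and 3 mutant libraries, numbered by animal, with a line at each group's mean and a bar for the SD. The mutants lie close together and above all controls for Gria1, Cacng4 and Cacng5, and below them for Gria2 and Cacng2, and control 1 is the lowest and control 4 the highest control in most of the long genes.

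Gria1 encodes GluA1, the subunit most closely tied to activity-dependent delivery of receptors to synapses. It was measured at 897, 1524, 1478 and 2132 CPM in controls 1 to 4 and at 2627, 2434 and 2390 CPM in mutants 6, 7 and 8. Each mutant was above each control, and the controls spanned a wide range whose ends were controls 1 and 4. The means were 1508 ± 504 CPM (SD, n = 4) and 2484 ± 126 CPM (SD, n = 3). The log2 fold change of 0.72 (SE 0.25) did not pass the test (edgeR adjusted p 0.106). With the length offset the log2 fold change was 0.74 (SE 0.09, edgeR adjusted p 3.28e-05), and on that scale Gria1 stood between 1218 and 1568 CPM in the controls and between 2405 and 2472 CPM in the mutants. Without controls 1 and 4 it was 0.72 (SE 0.12, edgeR adjusted p 4.92e-05), and without control 4 alone 0.93 (edgeR adjusted p 0.00381). Without any other single library Gria1 stayed uncalled (edgeR adjusted p 0.0716 to 0.281). The size of the Gria1 difference thus changed little with the offset, while its SE fell from 0.25 to 0.09 and the call changed. These values rest on 11315 to 26431 reads in controls and 26518 to 33581 in mutants. Gria1 (ENSMUSG00000020524.16) lies on the plus strand of chromosome 11, at 57011387 to 57330244 (GRCm38).

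Gria2 encodes GluA2, the subunit that limits calcium entry. Its levels were 1468, 1514, 1409 and 1400 CPM in controls 1 to 4 and 1248, 1221 and 1185 CPM in the mutants. The 3 mutants were all below the 4 controls, and Gria2 was the only one of the 4 pore subunits in which controls 1 and 4 did not stand at opposite ends. The means were 1448 ± 53.7 CPM (SD, n = 4) and 1218 ± 31.5 CPM (SD, n = 3). The log2 fold change of -0.25 (SE 0.16) did not pass the test (edgeR adjusted p 0.404). It was -0.28 with the length offset (edgeR adjusted p 0.0948), where the ranges of 1171 to 1755 and 1183 to 1218 CPM overlapped, and -0.26 without controls 1 and 4 (edgeR adjusted p 0.103). Gria2 (ENSMUSG00000033981.14) lies on the minus strand of chromosome 3, at 80681450 to 80802835.

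Gria3 and Gria4 encode GluA3 and GluA4, the latter a subunit of fast receptors and prominent in parvalbumin neurons. Gria3 (ENSMUSG00000001986.16, chromosome X, 41400854 to 41678601, plus strand) was at 415, 565, 498 and 812 CPM in the controls and at 503, 511 and 534 CPM in the mutants. Gria4 (ENSMUSG00000025892.16, chromosome 9, 4417896 to 4796234, minus strand) was at 644, 942, 780 and 1191 CPM in the controls and at 856, 837 and 778 CPM in the mutants. In both genes the mutants fell within the range of the controls. The log2 fold changes were -0.15 for Gria3 (SE 0.20, edgeR adjusted p 0.741) and -0.11 for Gria4 (SE 0.20, edgeR adjusted p 0.817), and without control 4 they were 0.07 and 0.06, so neither has a direction that holds. The length offset gave -0.14 (SE 0.09) and -0.11 (SE 0.08), and without controls 1 and 4 they were -0.04 (SE 0.10) and -0.07 (SE 0.11). Neither gene was called in any alternative fit that was run.

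The balance of the pore subunits was followed as ratios within each library, given as description with no test. The CPM of Gria1 divided by that of Gria2 was 0.611, 1.01, 1.05 and 1.52 in controls 1 to 4 and 2.10, 1.99 and 2.02 in the mutants, with means of 1.05 ± 0.373 (SD, n = 4) and 2.04 ± 0.0585 (SD, n = 3). Gria1 divided by Gria4, a pair of genes of like length that share most of the length trend, ran from 1.39 to 1.89 in the controls and from 2.91 to 3.07 in the mutants. Neither ratio overlapped between the groups, and the second varied far less among the controls. For Gria1 over Gria2 this was fixed in advance, since neither gene overlapped and they differed in opposite directions. It was not fixed for Gria1 over Gria4, because Gria4 overlapped.

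To compare levels between genes, counts were divided by the length over which reads could be counted. Protein-coding genes that lie wholly inside another gene's span, 1287 in all, were at 0 in every library, whichever strand they were on and whether or not exons overlapped. Of the 11728 with no other gene in their span, 24.7% were at 0. Reads were therefore in effect counted over whole gene spans, introns included, without regard to strand, and those falling in more than 1 gene were left out. The length used is the span not shared with another gene. No AMPA receptor gene lies inside another. Cacng8 shares 37.74% of its span and the other 9 at most 2.11%.

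On that scale Gria2 took 66.8%, 57.3%, 57.8% and 47.5% of the summed pore subunits in controls 1 to 4 and 45.5%, 46.3% and 46.0% in the mutants. Gria1 took 15.5%, 21.9%, 23.1% and 27.5% in the controls and 36.5%, 35.1% and 35.3% in the mutants. The Gria1 share was higher in each mutant than in each control, by 13.6 percentage points between the means, and the Gria2 share lower, although control 4 came within a few points of the mutants. Gria3 held 9.63% ± 1.66 (SD, n = 4) in controls and 8.51% ± 0.519 (SD, n = 3) in mutants. Gria4 held 11.0% ± 1.54 (SD, n = 4) and 9.95% ± 0.254 (SD, n = 3). Per kb of exons the shares change place: Gria1 had 45.3% ± 4.91 (SD, n = 4) in controls and 61.1% ± 0.75 (SD, n = 3) in mutants, and Gria2 18.1% ± 4.84 and 11.7% ± 0.19. The order of Gria1 and Gria2 thus depends on the length chosen, while on both scales the mean share of Gria1 was higher and that of Gria2 lower in the mutants.

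**Figure D3:**
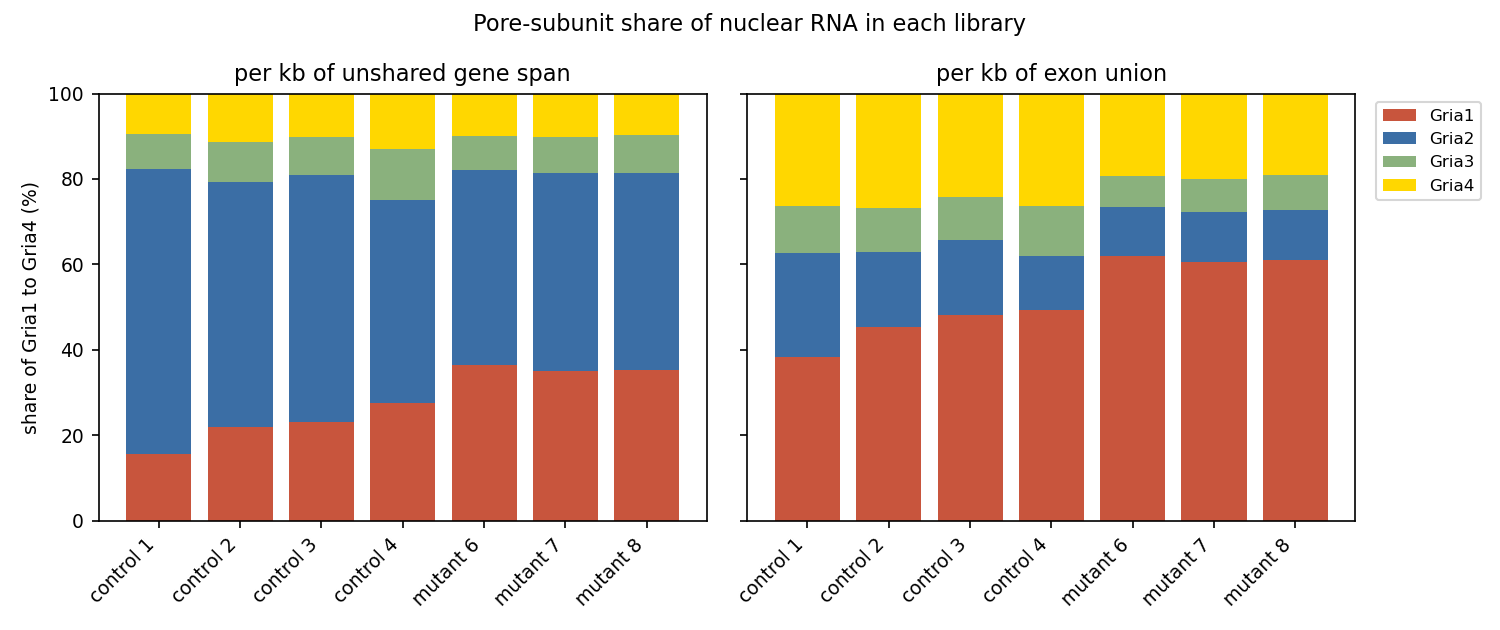
Share of each pore subunit (percent of the 4 summed, vertical axis) in each control and mutant library, per kb of unshared gene span on the left and per kb of exons on the right. Per unshared span Gria1 takes 15.5% to 27.5% in the controls and 35.1% to 36.5% in the mutants, and the 3 mutants are nearly alike.

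The codon at which GluA2 is edited, the Q/R site, is written in the reference as a glutamine codon in all 4 genes. The windows below show the pore loop around it, because the calcium permeability of the receptor turns on this codon and the 4 subunits differ little there. They were read 5′ to 3′ from spliced GENCODE M21 transcripts, with the Q/R codon in capitals. It lies in exon 11 of 16 in Gria1, Gria2 and Gria3 and in exon 12 of 17 in Gria4, at chr11:57243094-57243096 (plus strand), chr3:80706911-80706913 (minus), chrX:41610265-41610267 (plus) and chr9:4464137-4464139 (minus) of GRCm38. Each window crosses an exon junction.
Gria1: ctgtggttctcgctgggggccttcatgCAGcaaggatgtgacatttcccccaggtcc
Gria2: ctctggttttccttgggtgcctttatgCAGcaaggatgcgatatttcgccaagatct
Gria3: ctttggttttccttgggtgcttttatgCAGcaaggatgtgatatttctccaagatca
Gria4: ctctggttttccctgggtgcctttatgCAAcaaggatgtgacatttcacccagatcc

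Of the 57 bases, Gria1 shares 45 with Gria2, Gria3 shares 52 and Gria4 shares 50, and Gria4 uses the other glutamine codon at the site. The deaminase for this codon in Gria2, encoded by Adarb1, fell in the mutants. Adarb1 was at 238, 277, 278 and 355 CPM in controls 1 to 4 and at 166, 143 and 146 CPM in mutants 6, 7 and 8. All mutants were well below all controls (287 ± 49.0, SD, n = 4, against 152 ± 12.5, SD, n = 3; log2 fold change -0.92, SE 0.15, edgeR adjusted p 0.00198). It was called in every fit that left out 1 library. Its relatives Adar, the broadly expressed deaminase, and Adarb2, a paralogue without known editing activity, had log2 fold changes of -0.12 and -0.13 and were not called. The tables hold gene counts, so editing of Gria2 itself was not measured.

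Among the TARPs, Cacng4 had the lowest adjusted p of the 10 genes. It encodes TARP γ-4, a regulatory protein best known from the developing brain. Its levels were 20.6, 19.8, 25.6 and 23.9 CPM in controls 1 to 4 and 33.2, 42.4 and 40.3 CPM in the mutants. Every mutant was above every control. The means were 22.5 ± 2.72 CPM (SD, n = 4) and 38.6 ± 4.84 CPM (SD, n = 3), which is 1.72-fold or 0.78 on the log2 scale (SE 0.14, edgeR adjusted p 0.00429), from 260 to 336 reads per control and 424 to 515 per mutant. Cacng4 was called in every alternative fit and after leaving out any 1 library. With the length offset its log2 fold change was 0.77 (edgeR adjusted p 0.000439), and without controls 1 and 4 it was 0.76 (edgeR adjusted p 0.00026). Controls 1 and 4 did not mark the ends of its range. The gene (ENSMUSG00000020723.3) lies on the minus strand of chromosome 11, at 107732357 to 107794557.

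Cacng5, which encodes the atypical TARP γ-5, rose less. It was at 22.5, 22.8, 21.3 and 18.6 CPM in the controls and at 27.7, 32.2 and 32.1 CPM in the mutants. The groups did not overlap, and the means were 21.3 ± 1.89 CPM (SD, n = 4) and 30.7 ± 2.59 CPM (SD, n = 3). The rise was 1.44-fold, a log2 value of 0.53 (SE 0.13, edgeR adjusted p 0.0251). This call was lost in some fits that left out 1 library. The edgeR adjusted p was 0.0501 without control 2, 0.0696 without control 3, 0.118 without mutant 7 and 0.116 without mutant 8. The log2 fold changes were 0.49 to 0.56. Calls over all genes were also fewer in these fits, at 1046, 1016, 734 and 816 against 1549. For Cacng5 the edgeR adjusted p was 0.00935 with the length offset and 0.0156 without controls 1 and 4. Cacng5 (ENSMUSG00000040373.12) is the next tested protein-coding gene after Cacng4, at 107874605 to 107915055 on the same strand and 80.0 kb away. The nearest tested protein-coding genes on either side of this pair were Helz (log2 fold change -0.08, edgeR adjusted p 0.8) and Prkca (0.21, edgeR adjusted p 0.698). Prkca encodes protein kinase C alpha. Neither was called, and genes too low to test were passed over.

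Cacng2 encodes stargazin, or TARP γ-2, the first protein of the family to be described and the one lost in the stargazer mouse. It was at 110, 155, 155 and 259 CPM in controls 1 to 4 and at 101, 99.7 and 109 CPM in the mutants. The mutants were below the controls, but only just below control 1, at 109.7 CPM against 109.4 CPM in mutant 8. The means were 170 ± 63.4 CPM (SD, n = 4) and 103 ± 5.32 CPM (SD, n = 3), and the log2 fold change of -0.72 (SE 0.22) did not pass the test (edgeR adjusted p 0.0698). With the length offset it was -0.69 (SE 0.13, edgeR adjusted p 0.00188), with 132 to 215 CPM in controls and 97.3 to 109 CPM in mutants. Without controls 1 and 4 it was -0.59 (edgeR adjusted p 2.61e-05). Leaving out control 1 alone gave -0.87 (edgeR adjusted p 0.006) and leaving out control 4 alone gave -0.44 (edgeR adjusted p 0.0293). Without any other single library Cacng2 stayed uncalled (edgeR adjusted p 0.107 to 0.237). Cacng2 (ENSMUSG00000019146.2) lies on the minus strand of chromosome 15, at 77991748 to 78120028.

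The CPM of Cacng4 divided by that of Cacng2 averaged 0.143 ± 0.0423 (SD, n = 4) in controls and 0.374 ± 0.0484 (SD, n = 3) in mutants, with ranges of 0.0921 to 0.188 and 0.329 to 0.425. For Cacng5 over Cacng2 the means were 0.140 ± 0.0544 (SD, n = 4) and 0.297 ± 0.0244 (SD, n = 3). Neither ratio overlapped between the groups. This was fixed in advance, since Cacng4 and Cacng5 were higher and Cacng2 lower in every mutant than in every control. Both ratios are descriptions with no test and add nothing to the values of the single genes.

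The remaining TARPs, Cacng3 (γ-3) and Cacng8 (γ-8, the main TARP of the hippocampus), were not called. Cacng3 was at 77.3, 104, 106 and 156 CPM in controls and at 107, 99.8 and 114 CPM in mutants (log2 fold change -0.05, SE 0.19, edgeR adjusted p 0.916). Cacng8 was at 22.3, 22.5, 25.8 and 41.5 CPM in controls and at 32.9, 18.4 and 26.4 CPM in mutants (log2 fold change -0.11, SE 0.24, edgeR adjusted p 0.848). The mutants lay within the control range in Cacng3, and in Cacng8 mutant 7 was the lowest of all libraries and control 4 the highest. Without control 4 the log2 fold changes were 0.16 for Cacng3 and 0.14 for Cacng8, so neither has a settled sign. Under the offset they were -0.04 (SE 0.12) and -0.12 (SE 0.25), and without controls 1 and 4 they were 0.02 (SE 0.10) and 0.10 (SE 0.18). Cacng3 (ENSMUSG00000066189.9) lies at 122670492 to 122769393 and Cacng8 (ENSMUSG00000053395.15) at 3390683 to 3415648, both on the plus strand of chromosome 7.

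Cnih3 encodes a cornichon that helps receptors leave the endoplasmic reticulum and slows their deactivation. Its levels were 29.8, 31.6, 34.6 and 48.8 CPM in controls 1 to 4 and 45.5, 51.8 and 43.4 CPM in the mutants. Control 4 lay among the mutants, and the other 3 controls lay below them. The means were 36.2 ± 8.62 CPM (SD, n = 4) and 46.9 ± 4.35 CPM (SD, n = 3), and the log2 fold change of 0.37 (SE 0.16) did not pass the test (edgeR adjusted p 0.203). With the length offset it was 0.37 (SE 0.12, edgeR adjusted p 0.0363), with 31.0 to 41.5 CPM in controls and 43.3 to 51.6 CPM in mutants. Without controls 1 and 4 it was 0.50 (edgeR adjusted p 0.00428), and without control 4 alone 0.55 (edgeR adjusted p 0.00559). Without any other single library Cnih3 stayed uncalled (edgeR adjusted p 0.253 to 0.499). Cnih3 (ENSMUSG00000026514.14) lies on the plus strand of chromosome 1, at 181352628 to 181460641.

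**Figure D4:**
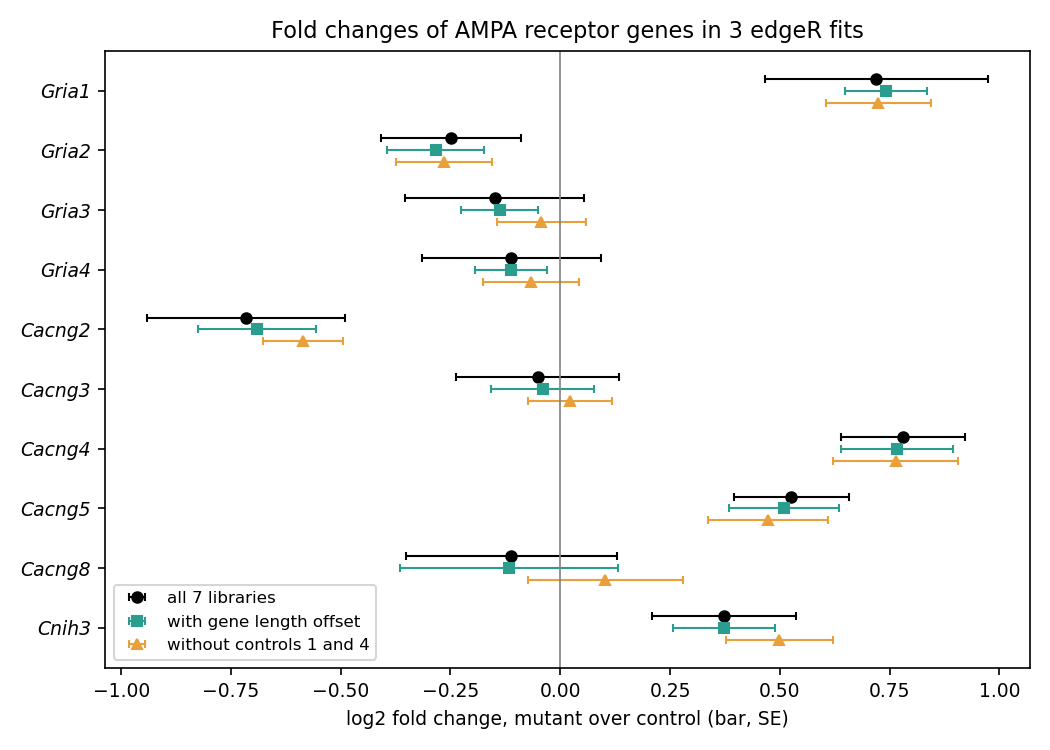
Log2 fold change of mutant over control (horizontal axis, bars are the SE) for the 10 genes in 3 edgeR fits: all 7 libraries, the same with the gene length offset, and without controls 1 and 4. Gria1, Cacng4, Cacng5 and Cnih3 lie to the right of 0 in all 3 fits. Gria2, Gria3, Gria4 and Cacng2 lie to the left, Gria3 and Gria4 closer to 0 than Gria2 and Cacng2. The bars of Gria1 and Cacng2 are shorter with the offset and without controls 1 and 4.

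Along the kb of unshared span, the order of mean levels in the controls was Gria2 (11.9 ± 0.443 CPM per kb, SD, n = 4), Gria1 (4.73 ± 1.58), Gria4 (2.35 ± 0.622), Gria3 (2.06 ± 0.616), Cacng8 (1.80 ± 0.588), Cacng2 (1.33 ± 0.496), Cacng3 (1.14 ± 0.336), Cacng5 (0.527 ± 0.0468), Cacng4 (0.365 ± 0.0442) and Cnih3 (0.343 ± 0.0816). Among the controls the lowest Gria2 value lay above the highest Gria1 value, Cacng3 above Cacng5 and Cacng5 above Cacng4, and all other neighbours in that order overlapped. In the mutants the order differed at a single place, with Cacng3 (1.10 ± 0.0731, SD, n = 3) ahead of Cacng2 (0.807 ± 0.0416). Cacng2 then overlapped with Cacng5 (0.759 ± 0.064), and Cacng5 with Cacng4 (0.628 ± 0.0786). Among these 3 TARPs, the control level of Cacng2 was above those of Cacng5 and Cacng4 in every library. Per kb of exons the order in both groups was Gria1, Gria4, Gria2, Gria3, Cacng3, Cacng2, Cnih3, Cacng8, Cacng4 and Cacng5, so the change of place between Cacng2 and Cacng3 is seen on the unshared span scale alone.

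A wider set of 39 genes was drawn from proteins that bind, export, scaffold or gather AMPA receptors and from the adenosine deaminase family, and 35 of them were tested. In it 1 gene rose and 5 fell, or 17.1% of those tested against 9.42% of all genes, with a median log2 fold change of -0.02. In the group of other auxiliary proteins, all 9 tested, Shisa7 rose and Shisa8 and Syndig1 fell. Shisa7, a relative of the receptor partner CKAMP44, went from 62.4 ± 10.95 CPM (SD, n = 4) to 90.1 ± 12.7 CPM (SD, n = 3), with mutant 6 just below control 4 (log2 fold change 0.53, SE 0.15, edgeR adjusted p 0.0404). Shisa8, also of the CKAMP family, went from 11.2 ± 2.52 to 4.63 ± 1.55 CPM with no overlap (log2 fold change -1.27, SE 0.27, edgeR adjusted p 0.0119). It was called in all fits that used every library, and was lost without mutant 7 (log2 fold change -1.02, edgeR adjusted p 0.0626). Syndig1, a membrane protein of developing excitatory synapses, went from 115 ± 45.8 to 58.4 ± 7.69 CPM (log2 fold change -0.98, SE 0.24, edgeR adjusted p 0.0256). The other 6 of this group, Cacng7, Shisa6, Shisa9, Cnih2, Gsg1l and Prrt1, were not called, and the median of the group was -0.04.

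Among 6 genes of receptor assembly and export, 2 fell, 0 rose and the median was -0.27; of all tested genes 4.78% fell and 4.63% rose. Abhd6, a lipase that also binds pore subunits and restrains their delivery, was at 90 to 126 CPM in the controls and 73.7 to 75.4 CPM in the mutants (log2 fold change -0.49, SE 0.13, edgeR adjusted p 0.0307). Abhd12, a lysophosphatidylserine lipase, was at 150 to 172 CPM and 120 to 126 CPM (log2 fold change -0.38, SE 0.11, edgeR adjusted p 0.0429). Neither overlapped between groups, as was so for 22.0% of all tested genes. The other 4 genes, Frrs1l, Cpt1c, Sacm1l and Porcn, were not called.

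Among scaffolds and trafficking proteins, such as the postsynaptic density proteins Dlg1 to Dlg4 and the vesicle fusion ATPase Nsf, 0 of 10 tested genes were called by edgeR. Over all tested genes 9.42% were called, so 0 calls in so short a list says little. At an unadjusted p under 0.05 there were 4, against 22.5% of all tested genes. CPM did not overlap in 4, Dlg1, Grip2, Nsf and Akap5, against 22.0% of all tested genes. Among the secreted and adhesion proteins that gather receptors at synapses, such as the pentraxins Nptx1, Nptx2 and Nptxr, 0 of 7 tested genes were called and 0 had an unadjusted p under 0.05. Lrrtm1 and Lrrtm2 were at 0 in every library, and both lie inside another gene, so their RNA was not measurable in these tables. Pick1, with 98.93% of its span shared, was too low to test.

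**Figure D5:**
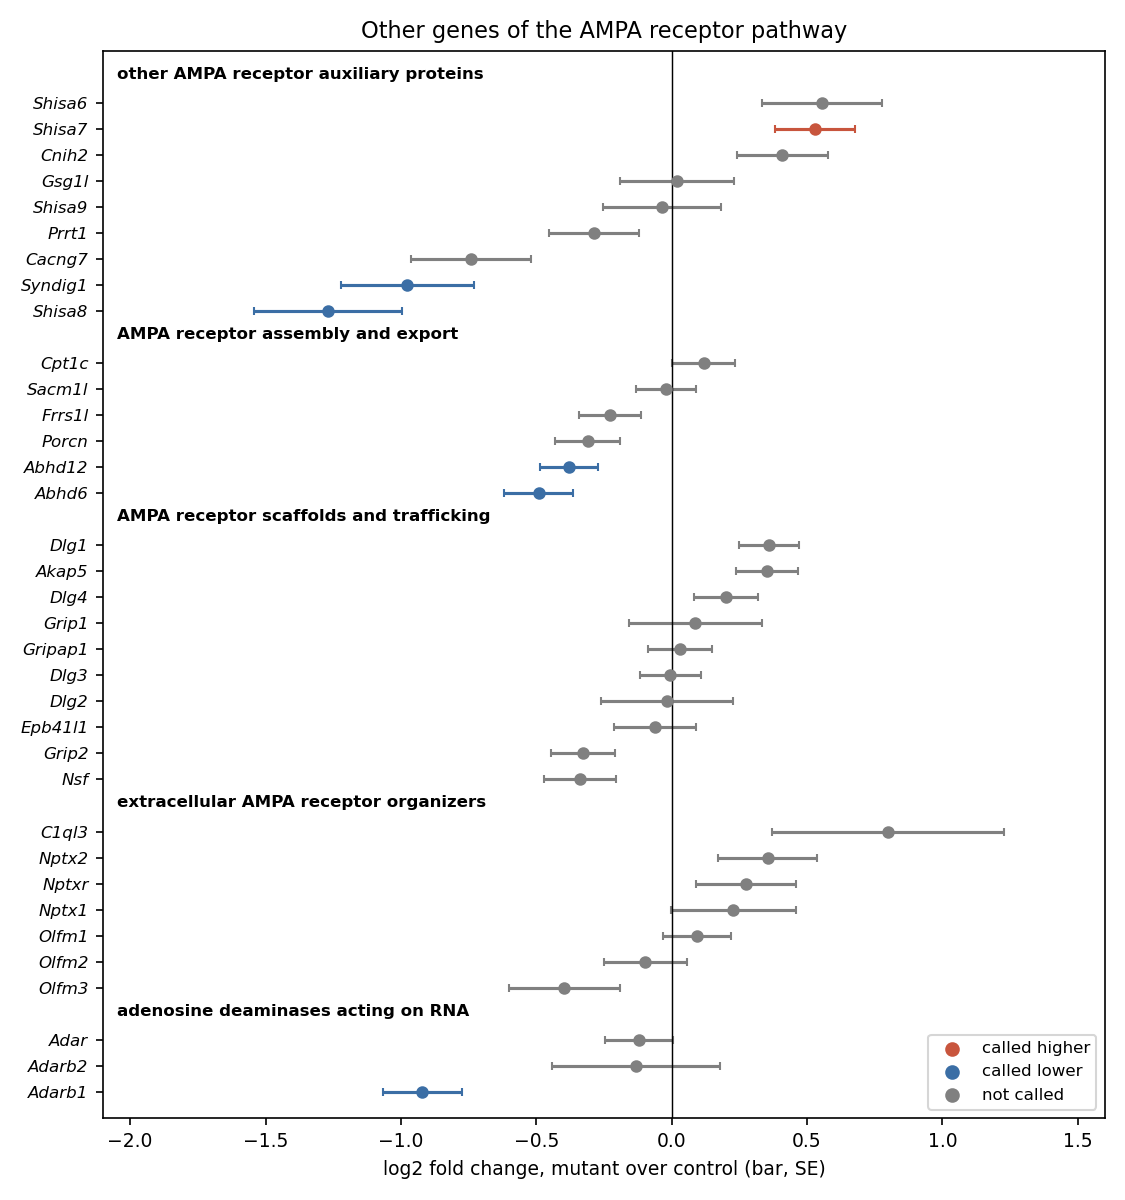
Log2 fold change of mutant over control (horizontal axis, bars are the SE) for the 35 tested genes of the 5 other AMPA receptor lists, grouped by list, with called genes marked. Shisa7 is the called gene to the right of 0, and Adarb1, Shisa8, Syndig1, Abhd6 and Abhd12 are those to the left.

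Calls in this wider set, other than that of Adarb1, were also lost in some fits that left out 1 library. Shisa7 and Abhd12 were lost without control 2 (edgeR adjusted p 0.123 and 0.072), control 3 (0.0856 and 0.0837), mutant 7 (0.155 and 0.16) or mutant 8 (0.185 and 0.153), and Abhd12 also without mutant 6 (0.171). Syndig1 and Abhd6 were lost without control 2 (edgeR adjusted p 0.0736 and 0.0888), mutant 6 (0.131 and 0.11), mutant 7 (0.121 and 0.127) or mutant 8 (0.0685 and 0.131). With the glutamatergic covariate Shisa7, Abhd6 and Abhd12 missed the threshold (edgeR adjusted p 0.0716, 0.0629 and 0.083). Without the filter on low counts so did Syndig1 (0.204) and Abhd12 (0.0701), and with library totals only Abhd12 (0.102). With the length offset, and without controls 1 and 4 together, all 6 genes kept their call and direction. The offset gave log2 fold changes of -0.93 for Adarb1, 0.52 for Shisa7, -1.22 for Shisa8, -0.95 for Syndig1, -0.50 for Abhd6 and -0.40 for Abhd12.

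Because AMPA receptor genes are expressed by many cell types, markers of the sorted and of other cells were set beside them. The GABAergic markers Gad1 and Gad2, the enzymes that make GABA, were at 520 to 660 CPM and 388 to 423 CPM in controls and at 586 to 664 CPM and 367 to 497 CPM in mutants. The sum of the 8 general GABAergic markers was 2154 to 2544 CPM in controls and 2127 to 2559 CPM in mutants. Of 6 tested, 0 were called by edgeR and 0 had an unadjusted p under 0.05. Over all tested genes these shares were 9.42% and 22.5%, so 0 calls in so short a list says little. Dlx1 and Dlx6, transcription factors of this lineage, were at 0, and both lie inside another gene. The 10 glutamatergic markers summed to 144 to 272 CPM in controls and 137 to 213 CPM in mutants, with a median log2 fold change of -0.04. Of the 10, 0 were called by edgeR and 1 had an unadjusted p under 0.05, beside the same shares of all tested genes. Slc17a7, the vesicular glutamate transporter of cortical excitatory neurons, was at 46.9 to 94.5 CPM and 47.7 to 84.2 CPM. With the glutamatergic level as a covariate, the log2 fold changes were 0.70 for Gria1 (edgeR adjusted p 0.187), 0.77 for Cacng4 and 0.53 for Cacng5.

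Of the 42 tested markers of 6 other cell types, 3 were called, or 7.14%, which is below the 9.42% of all tested genes. Mog, a myelin protein, rose (log2 fold change 0.93, edgeR adjusted p 0.00545), in a list of 9 oligodendrocyte lineage genes that summed to 156 to 187 CPM in controls and 173 to 204 CPM in mutants. Rgs9, a regulator of G protein signalling in striatal neurons, rose (0.81, edgeR adjusted p 0.0104), and the 6 striatal markers summed to 106 to 181 CPM in controls and 187 to 231 CPM in mutants. The median log2 fold change of these 6 was 0.02, and the other 5 were not called, among them Penk, an opioid precursor, at 0.40. Slc4a4, a bicarbonate transporter of astrocytes, fell (-0.54, edgeR adjusted p 0.0366), and the 7 astrocyte markers, Gfap at 0 among them, summed to 350 to 507 CPM in controls and 293 to 335 CPM in mutants. The 6 microglial markers summed to 66.5 to 82.4 CPM and 80.5 to 85.8 CPM, with P2ry12 at 0, and the 6 endothelial markers to 49.0 to 111 CPM and 50.4 to 75.8 CPM. The part of these cells in the AMPA receptor values was not tested. The glutamatergic covariate, a mean log2 CPM of the markers, ran from 2.75 to 3.58 in controls and from 2.99 to 3.32 in mutants. With 7 libraries and such overlap, that fit cannot decide the part of glutamatergic cells.

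Markers of the classes of inhibitory neuron moved with the groups. Pvalb, the calcium-binding protein that names the parvalbumin class, was at 35.7 to 47.8 CPM in controls and 1.29 to 2.58 CPM in mutants (log2 fold change -4.48, SE 0.23, edgeR adjusted p 7.63e-07). Of the 11 parvalbumin class markers, 1 rose and 5 fell. In the somatostatin list 3 rose and 2 fell of 8, in the VIP list 3 rose and 2 fell of 7, and in the LAMP5 list 1 rose and 2 fell of 8, where 4.63% of all tested genes rose and 4.78% fell. These classes differ in their AMPA receptor subunits, and the part of these marker changes in the values of Gria1, Cacng2, Cacng4, Cacng5 or Adarb1 was not tested.

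Y-linked genes gave 4 counts in control 4 and 3 in mutant 8, against 5094 to 6644 in the other libraries. With the presence of such reads as a covariate, a setting chosen after seeing the data, Cacng2 was called (log2 fold change -0.70, SE 0.17, edgeR adjusted p 0.0195) and no other AMPA receptor gene changed its call.

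For Cacng4, the gene of lowest adjusted p among the 10, the 3 genes with the most similar profile over the 7 libraries were Mrap2, Lypd6 and Bcl6. Likeness was the root mean square difference of centred log2 CPM, over tested genes that averaged 5 CPM or more. It was 0.066 for Mrap2, an accessory protein of melanocortin receptors, at 10.4 to 13.6 CPM in controls and 18.8 to 22.1 CPM in mutants. It was 0.104 for Lypd6, a modulator of nicotinic receptors, at 54.1 to 68.4 CPM and 101 to 123 CPM, and 0.104 for Bcl6, a transcriptional repressor, at 23.9 to 27.6 CPM and 34.4 to 42.2 CPM. All 3 were called as higher in the mutants (edgeR adjusted p 0.00659, 0.00104 and 0.00954), and they were picked for that likeness.

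Thyroid hormone receptors bind DNA at repeats of the half-site AGGTCA, which was therefore searched on both strands (TGACCT on the other) in RefSeq promoters of GRCm38.p6, from 250 bases before to 50 after each start. Of the 10 genes, 7 matched the promoter table, with 8 promoters. Gria1, Gria3 and Cacng4 had no entry there, so their promoters were not searched. The half-site occurred in 1 of the 8 promoters, that of Cacng8, with 2 matches, against 16.3% of all 32851 promoters. The promoter of Cacng8, which was not called, is shown for its matches, in capitals, and that of Cacng5, which rose, for comparison; it holds no match. They lie at chr7:3393792-3394091 (plus strand) and chr11:107915006-107915305 (minus strand) and are printed 5′ to 3′.
Cacng8: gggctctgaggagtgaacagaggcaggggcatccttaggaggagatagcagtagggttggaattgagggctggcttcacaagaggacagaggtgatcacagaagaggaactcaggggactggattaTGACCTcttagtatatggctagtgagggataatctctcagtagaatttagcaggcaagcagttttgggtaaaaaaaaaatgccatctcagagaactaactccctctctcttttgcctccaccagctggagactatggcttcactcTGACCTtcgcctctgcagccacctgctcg
Cacng5: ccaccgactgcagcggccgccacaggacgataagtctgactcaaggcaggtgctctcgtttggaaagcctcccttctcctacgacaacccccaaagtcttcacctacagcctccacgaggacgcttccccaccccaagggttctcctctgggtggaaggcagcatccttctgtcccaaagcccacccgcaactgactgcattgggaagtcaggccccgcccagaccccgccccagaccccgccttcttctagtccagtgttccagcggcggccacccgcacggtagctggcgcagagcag

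A match to 6 letters is a description of the sequence and no evidence of binding. The RNA data hold no measurement of receptor binding, and the windows are those of RefSeq starts, some of which, that of Cacng8 among them, lie inside the gene as GENCODE M21 annotates it.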

How the data were processed

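The authors deposited whole-number read counts for each gene, with no normalization recorded. Per the submitters' processing notes, Bowtie2 2.5.3 and builds mm10 and GRCm38 were used. The counting program is not given in the sources used here. Per the labels' protocols, SMART-Seq v4 cDNA and Nextera XT libraries were read as paired ends on a NextSeq. PCR reads without molecular identifiers are not independent molecules. All 55450 identifiers matched GENCODE M21 (GRCm38), the source of symbols and coordinates.

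Counts were fitted in R 4.3.3 with edgeR 4.0.16 (TMM, filterByExpr with a least count of 10 and least total of 15, robust glmQLFit and glmQLFTest, two-sided, group only). The SE is the log2 fold change divided by the square root of F. The length offset is a loess (span 0.5) of each library on log genomic length. Alternatives were RLE factors, library totals, DESeq2 1.42.0, limma 3.58.1 voom, no filter, covariates, and left-out libraries. The scripts were tested on simulated data. Levels per kb use the unshared span, not the planned exon length, since counts followed gene spans; the exon length became the alternative. The members, lists and tests were chosen with earlier results of these data known. Named are the 10 genes, Thra, Pvalb, called genes of the pathway and other cell type lists, and the 3 nearest profiles. Neighbouring genes, unpassed list members and Gad1, Gad2 and Slc17a7 are named for context.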

Additional observations from a re-analysis of the deposited data

How the results depend on the processing

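Under 9 alternatives that kept all 7 libraries or left out controls 1 and 4, Cacng4 kept its direction and call (log2 fold change 0.76 to 0.82), and Gria2, Gria3 and Gria4 stayed uncalled and negative. The number of genes called was 1549 in the main fit (9.42% of those tested), 1910 with DESeq2, 3147 with limma-voom and 1181 with the glutamatergic covariate. It was 2749 with the length offset and 2778 without controls 1 and 4, each 16.7% of those tested. Of the 10 AMPA receptor genes, 2 were called in the main fit, 4 with DESeq2 and 5 each with voom, the offset and without controls 1 and 4. Of the wider set, 6 were called in the main fit. The count was 17 with voom, 14 with the offset, 17 without controls 1 and 4 and 3 with the glutamatergic covariate. Calls over all genes rose or fell in the same direction in each of these fits, so the counts are description only. Shares of tested genes were not computed for DESeq2, voom or the covariate. Gria1 passed the test with library totals (0.78), DESeq2 (0.72), voom (0.74), no filter (0.72), the offset (0.74) and without controls 1 and 4 (0.72). Cacng2 passed with library totals (-0.65), DESeq2 (-0.72), voom (-0.59), the offset (-0.69), the Y-linked covariate (-0.70) and without controls 1 and 4 (-0.59). Cnih3 passed with voom (0.44), the offset (0.37) and without controls 1 and 4 (0.50). Cacng5 missed with library totals (0.56, edgeR adjusted p 0.0505). Cacng3 turned sign with library totals (0.0042), voom (0.019) and without controls 1 and 4 (0.022), and Cacng8 without those controls (0.10). The cause of these differences was not tested.

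Leaving out each library in turn gave 734 to 2347 called genes, 1 to 5 called AMPA receptor genes, and 1 to 10 of the wider set. Called genes were more than the 1549 of the main fit without control 1 (2038) or control 4 (2347), and fewer without any other library. The cause was not tested, and shares of tested genes were not computed for these fits. Log2 fold changes then ranged from 0.54 to 0.93 for Gria1, -0.27 to 0.067 for Gria3, -0.23 to 0.062 for Gria4, -0.87 to -0.44 for Cacng2, -0.19 to 0.16 for Cacng3, 0.47 to 0.59 for Cacng5, -0.32 to 0.14 for Cacng8 and 0.30 to 0.55 for Cnih3. Without mutant 7, Cacng3 was at 0.0010 and Cacng8 at 0.09. With exon length in place of unshared span, the mutant minus control difference in share was -2.85 percentage points for Gria3 and -6.57 for Gria4, against -1.12 and -1.06. No paired analysis was possible because controls and mutants share no replicate number.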
